A study of Mus musculus with 2 samples.

Results

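The FGF ligands made at the isthmus, a signalling centre between midbrain and hindbrain, were examined as 4 genes, Fgf8, Fgf17, Fgf18 and Fgf15. They were chosen by gene symbol, and every probe set whose platform annotation gives one of these symbols was taken. This gave 5 probe sets of the 45101 on the array, 1 each for Fgf8, Fgf18 and Fgf15 and 2 for Fgf17. The genes were picked with the difference between the arrays already known, so that difference is given below as a description and is not tested.

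The series holds 2 Affymetrix arrays, 1 of a sample labelled KO (knockout) and 1 of a sample labelled WT (wild type), both from C57BL/6 mice at stage E10.5, with the day of the plug counted as day 0.5. The tissue label of both is brain, while the titles name the embryo. The labels name neither the gene that was knocked out, nor the sex or number of the embryos, nor any Cre or transgene, so the targeted gene could not be used to check the KO label. With 1 sample per group there is no replicate error and no test, and every difference is between these 2 arrays. In bulk tissue, fewer cells of a type and less RNA per cell cannot be told apart.

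Fibroblast growth factors are secreted proteins that bind FGF receptors together with heparan sulphate and signal through the RAS-MAPK relay to ETS transcription factors, and the pathway induces its own inhibitors. Fgf8, Fgf17 and Fgf18 make up the Fgf8 subfamily, and their expression at the isthmus is known for patterning the midbrain and the cerebellum. Fgf15 belongs to the endocrine subfamily, is the mouse counterpart of human FGF19 and is known in the embryonic brain as a ligand of the dorsal neural tube and in the adult as a gut hormone that restrains bile acid synthesis.

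Of the member promoters, that of Fgf18 was found in the RefSeq promoter table. Its upstream bases are shown because Fgf18 is the member closest to the 2-fold threshold used below and because the stretch is unusually rich in CG pairs, which stand in capitals. The stretch is chr11:33147401-33147650 of GRCm38.p6, minus strand, the 250 bases before the transcription start, read 5′ to 3′ on the strand of the gene.
Fgf18: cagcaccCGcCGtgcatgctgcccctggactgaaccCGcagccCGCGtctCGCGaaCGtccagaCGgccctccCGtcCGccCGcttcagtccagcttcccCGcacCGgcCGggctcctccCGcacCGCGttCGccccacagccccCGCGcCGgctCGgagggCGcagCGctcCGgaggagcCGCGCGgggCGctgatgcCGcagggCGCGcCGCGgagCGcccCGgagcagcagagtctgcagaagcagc
It holds 37 CG pairs and is 77.2% G or C. Across the 32851 upstream stretches of the same length in that table the medians were 6 CG pairs and 52.4%, and 2.2% of the stretches held as many CG pairs as Fgf18 or more. None of 5 short motifs, searched on both strands, was found in the 300-base window that also takes in 50 bases after the start. These were TAATTA (homeodomain, in 5.29% of all such windows), TAATCC (OTX-type homeodomain, 7.06%), CTTTGT (SOX and TCF/LEF, 18.7%), CCGGAA (ETS, 14.9%) and CACGTG (E-box, 7.15%). No match says only that these letters are not in this window.

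Signals are given as deposited linear intensities, and differences as KO minus WT of log2(intensity + 16) after both arrays were brought to the same median. The added 16 damps noise at low signal and understates changes of dim genes. A gene passed the level filter when its higher array reached an intensity of 41.6, the median level of all 18194 genes, and 9294 genes passed.

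The members were all higher in the KO array, with Fgf8, Fgf17 and Fgf18 near the array median in WT and Fgf15 bright in both. Fgf8, the founding ligand of the isthmus, read 103 in KO and 18.2 in WT. The KO reading is 5.67 times the WT reading, and the difference on the log2(intensity + 16) scale was 1.80. The WT signal stood at percentile 54.7 of all probe sets of its array and the KO signal at percentile 76.2. The probe set carries the suffix that marks probes shared by several transcripts of a gene, so the splice forms of Fgf8 are not told apart.

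Fgf17, a close relative of Fgf8 that acts later and over a wider stretch of the junction, was measured by 2 probe sets that gave the same picture. Probe set 1421523_at read 146 in KO and 18.8 in WT, a difference of 2.22. Probe set 1456239_at read 147 in KO and 11.1 in WT, a difference of 2.59. The KO readings were nearly equal, and the WT readings were both under the level filter. The differences of the probe sets lay 0.37 apart, beside a pooled SD of 0.16 among probe sets of 1 gene, taken over the 3628 genes that have 2 or more probe sets past the filter. That SD measures spread between probes and says nothing about animals.

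Fgf18, the remaining ligand of the subfamily, read 62.6 in KO and 21.4 in WT. The KO reading is 2.93 times the WT reading, and the difference was 1.07, just past 2-fold on the log2(intensity + 16) scale. Fgf18 is the dimmest member in KO and its call depends on the added constant: the difference was 1.51 with a constant of 1 and 0.57, under 2-fold, with a constant of 64.

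Fgf15 stood apart from the other members in its WT signal. It read 519 in KO and 382 in WT, at percentiles 93.0 and 90.8 of their arrays. The ratio of the readings was 1.36 and the difference 0.43, under 2-fold. It was the only member above the level filter in both arrays, while Fgf8, Fgf17 and Fgf18 passed through their KO signal alone and so had to differ.

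**Figure D1:**
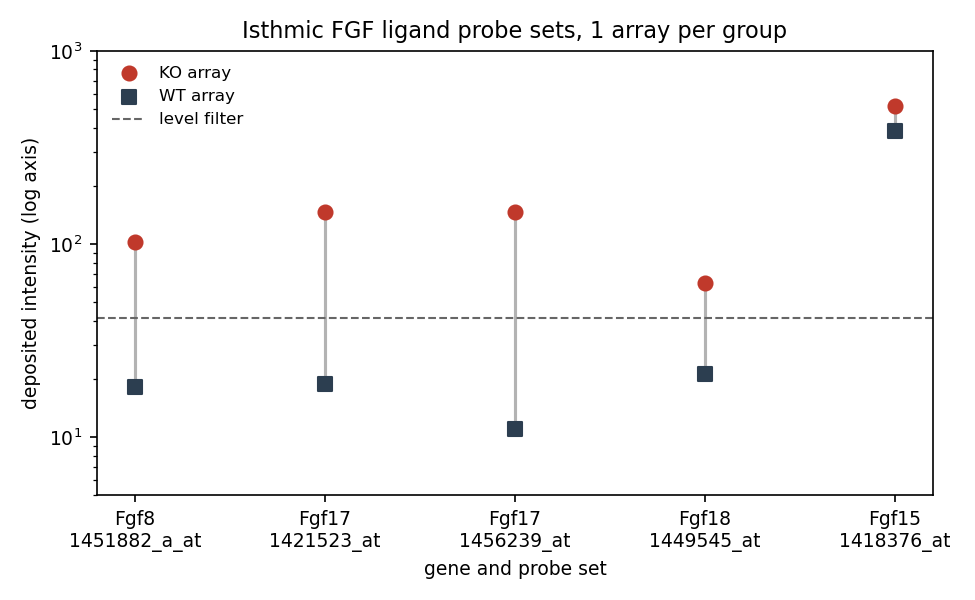
Deposited intensity (log axis) of the 5 member probe sets in the KO array (red circles) and the WT array (dark squares), with the level filter of 41.6 as a dashed line. Fgf8, both Fgf17 probe sets and Fgf18 lie under the line in WT and above it in KO, and Fgf15 lies above it in both, at 382 and 519.

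Differences of 2-fold or more were rare across the array. Of the 9294 genes passing the filter, 22 were at least 2-fold higher in KO (0.237%) and 8 at least 2-fold lower (0.0861%). By probe set, 35 of 14821 passed the threshold as higher (0.236%) and 15 as lower (0.101%). Over all 18194 genes, whatever their level, 0.154% were higher in KO by 2-fold or more and 0.0715% lower by as much, which is the background for the gene lists below. Of the members, 3 of 4 genes and 4 of 5 probe sets were among those higher, and since the members were chosen on this contrast nothing is read from that count. In the order of genes passing the filter from highest in KO to lowest, Fgf17 was number 5, Fgf8 number 6, Fgf18 number 20 and Fgf15 number 189. The median difference of the 4 members was 1.44, beside 0.0011 over all 18194 genes.

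**Figure D2:**
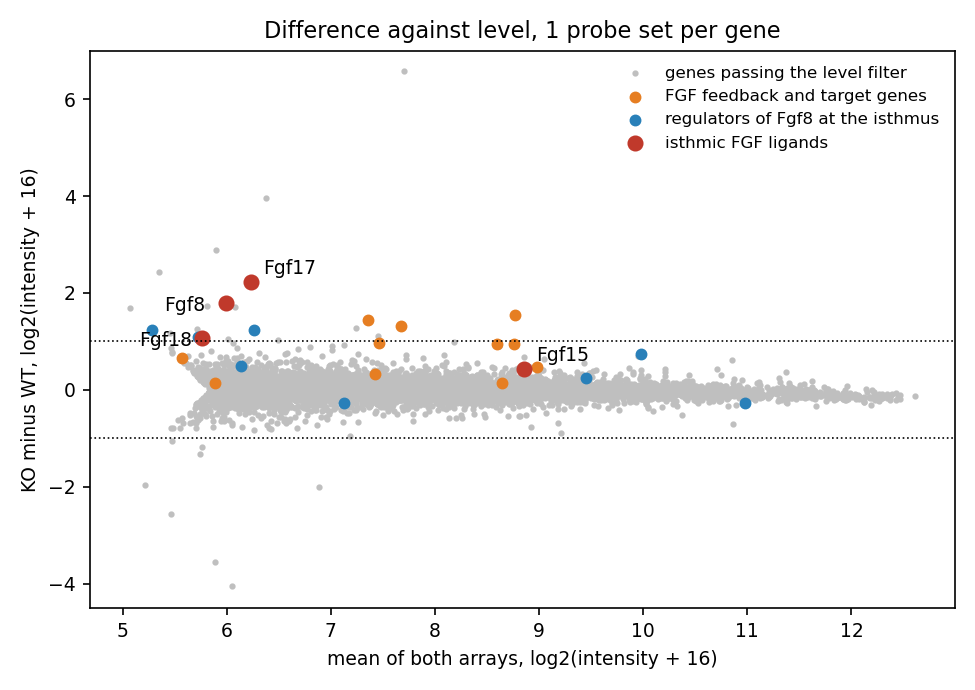
KO minus WT on the log2(intensity + 16) scale against the mean of both arrays, 1 probe set per gene, for the 9294 genes passing the level filter (grey), with the members in red, FGF feedback and target genes in orange and regulators of Fgf8 in blue. Dotted lines mark 2-fold. Fgf17 and Fgf8 lie far above the cloud at low mean level, Fgf18 at the upper line (1.07), and Fgf15 at the upper edge of the cloud at high level (0.43).

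Most of the remaining ligands of the family were too dim to be compared. All 18 other FGF ligand genes had a probe set, 36 in all, and 0 of the 36 were 2-fold apart, with differences from -0.38 to 0.54. That count says little, since 31 of the 36 read under 16 in both arrays and so could not reach 2-fold on the log2(intensity + 16) scale. Their median by gene was 0.0012, with 9 higher and 9 lower, where 50.3% of all genes were higher. Only Fgf13, an intracellular FGF homologue of neurons that is not secreted, passed the level filter, at 513 in KO and 521 in WT (-0.02). The other 17 read at most 25.6 in KO and 25.3 in WT. The ligand with the largest positive difference of the 18 was Fgf3, named after its values were seen. It read 18.4 in KO and 9.60 in WT (0.42), and its other probe sets read 9.75 against 3.35 and 9.22 against 1.34 (0.41 and 0.54), all under the filter.

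Receptor genes differed in both directions, all under 2-fold. Of 12 receptor and co-receptor genes 8 passed the filter and 0 were 2-fold apart, with 5 higher, 7 lower and a median of -0.04. Over all genes 0.154% were at least 2-fold higher and 0.0715% lower, so a count of 0 in a short list says little. The same holds for the counts of 0 in the lists that follow. Fgfr1, named after its values were seen, is the main FGF receptor of the isthmic region and read 223 in KO and 225 in WT (-0.0076). Fgfr2 read 389 in KO and 470 in WT (-0.27). Fgfr3 read 264 against 378 (-0.49), and its dimmer probe set read 11.7 against 24.7 (-0.55). Flrt1 and Flrt2, membrane proteins that bind FGF receptors, were on the other side, at 69.1 against 45.1 (0.48) and 299 against 240 (0.30). Of the receptors that passed the filter, Fgfr2 and Fgfr3 were thus lower in KO and Fgfr1 level, all under 2-fold.

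Genes that carry the signal inside the cell showed small differences in both directions. Of 17 listed adaptor and RAS-MAPK genes 11 were measured under 1 symbol and the other 6 were not analysed here. The median was 0.02, with 6 higher, 5 lower and 0 of them 2-fold apart. By the probe set that stands for each gene, Shc1, an adaptor of receptor tyrosine kinases, was the farthest apart at 74.3 against 54.0 (0.37). It was followed by Gab1, a docking protein, at 153 against 128 (0.23). Ptpn11, the phosphatase SHP2, read 687 in KO and 785 in WT (-0.19), and Map2k1, the kinase MEK1, read 404 and 354 (0.18). The probe sets of Gab1 did not share a sign, the second one above the filter reading 127 against 137 (-0.09). Further probe sets above the filter were farther apart than Shc1, for Map2k2 at 86.9 against 57.9 (0.48) and for Ptpn11 at 32.1 against 47.9 (-0.41).

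Heparan sulphate genes make or carry the sugar chains that FGF ligands need to bind their receptors. Of 20 listed 19 were measured, 18 passed and 0 were 2-fold apart, with 11 higher, 8 lower and a median of 0.06. Gpc4, a membrane-anchored carrier, read 103 in KO and 145 in WT (-0.44). Sdc1 and Sdc2, the syndecan carriers, read 519 against 403 (0.35) and 241 against 187 (0.34). Their other probe sets above the filter differed by 0.10 and 0.03 for Sdc1 and by -0.08 and 0.39 for Sdc2. Sulf1, which trims sulphate groups from the chains outside the cell, read 52.1 against 41.0 (0.26).

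Genes that FGF signalling induces were higher in KO. Of 15 measured feedback and target genes 14 were higher, 3 of them at least 2-fold, and the median was 0.66. Those 3 were Il17rd (1.55), Spry1 (1.43) and Spry2 (1.33), inhibitors of the pathway, of which Il17rd read 729 in KO and 239 in WT. By these probe sets they stood above the level filter in both arrays, unlike the subfamily ligands. Further probe sets under the filter read 21.7 against 8.54 for Il17rd (0.62) and 3.61 against 7.16 for Spry2 (-0.24). Etv5, an ETS factor that serves as a readout of FGF signalling, was measured by 2 probe sets above the filter, which differed by 0.96 and 0.98. Cnpy1, a positive regulator of FGF signalling known from the isthmus and named after its values were seen, had 3 probe sets above the filter. They read 584 against 297, 421.9 against 253 and 321 against 187, with differences of 0.94, 0.70 and 0.73. The only lower gene of this list was Dusp5, a phosphatase of ERK, at 27.9 against 35.4 (-0.23), under the filter. The median of this list was 0.35 when the probe sets of a gene were averaged, since several genes have further, dim probe sets. The list was chosen with earlier results of these arrays known, so its direction is not independent evidence.

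Regulators of Fgf8 at the isthmus were mostly higher too. Of 11 measured 9 were higher and 3 at least 2-fold, with a median of 0.58. The 3 were Sp8 (1.24), Pax8 (1.24) and En1 (1.10), which encode transcription factors of the junction. All 3 passed the level filter through their KO signal alone and so had to be higher in KO. Pax8 read 43.6 in KO and 9.20 in WT, and Sp8, which is known to act on Fgf8 at the isthmus, read 102 and 34.0. En1 read 61.4 and 20.1. Another Pax8 probe set, under the filter in both arrays, read 4.68 and 4.70. En2 was the brightest of those higher, at 1291 and 761 (0.75). Both lower members passed the filter: Otx2, which marks the midbrain and forebrain side and limits Fgf8 to the hindbrain side, read 1820 in KO and 2203 in WT (-0.27), and Sp5, a target of Wnt signalling, read 112 and 137 (-0.26). Gbx2, which marks the hindbrain side, was named after its values were seen and read 25.6 and 6.89 (0.86). Otx2 and Gbx2 thus differed in opposite directions, with Gbx2 under the level filter. No shift between the sides of the junction is read from this pair, picked from 11 genes. Wnt1 and Lmx1b, also named after their values were seen, were higher in KO. Wnt1 read 41.1 and 22.2 (0.58), under the filter, and Lmx1b read 67.8 and 43.2 (0.50). A dim Lmx1b probe set read 1.03 and 4.46 (-0.26).

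**Figure D3:**
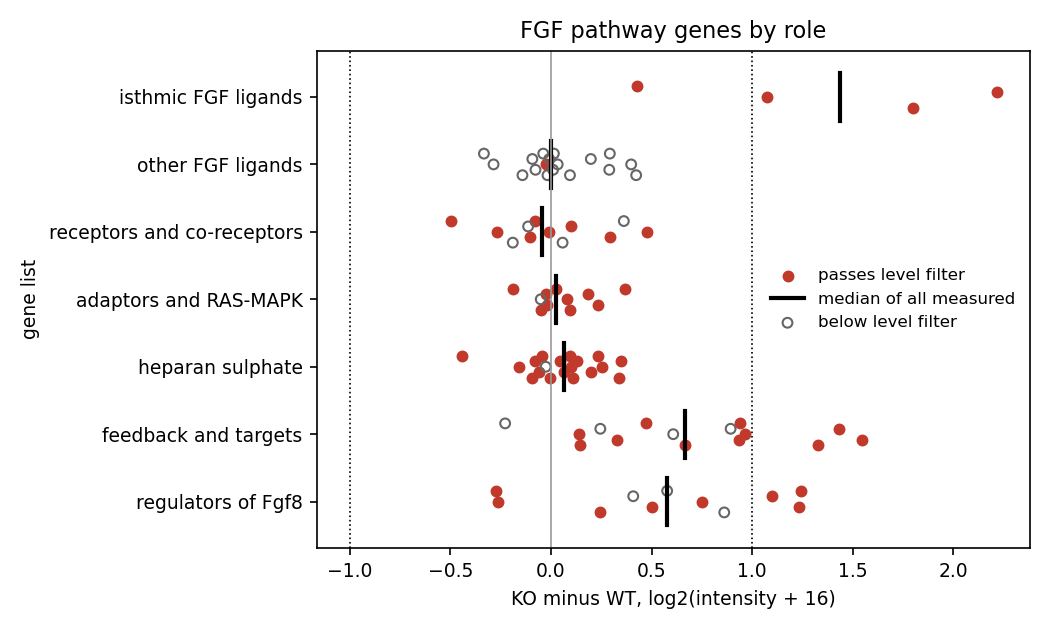
KO minus WT on the log2(intensity + 16) scale for each measured gene of 7 lists of the FGF pathway, with genes passing the level filter filled, others open, and a black bar at the median of each list. Dotted lines mark 2-fold. The isthmic ligands (median 1.44), the feedback genes (0.66) and the regulators of Fgf8 (0.58) lie to the right of 0, and the medians of the other 4 lists lie between -0.04 and 0.06.

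The genes whose pair of values was most like that of each member were looked up among genes passing the filter, as the distance between (KO, WT) points on the log2(intensity + 16) scale over 2 arrays. With so few arrays this likeness is no more than a similar level and difference. For Fgf8 they were Cthrc1 (distance 0.13, 106 against 21.4), Cldn10 (0.26, 86.3 against 14.8) and Fgf17 (0.44). For Fgf17 they were Cthrc1 (0.42), Fgf8 (0.44) and Msx3 (0.67, 146 against 5.91), a dorsal neural tube homeobox gene. For Fgf18 the nearest was En1 at a distance of 0.05, with 61.4 in KO and 20.1 in WT, followed by Btla (0.14) and Tubb1 (0.23). For Fgf15 they were Sdc1 (0.07), Gm6958 (0.08) and Ugdh (0.09), which are also bright in both arrays. Fgf8 and Fgf17 were each among the 3 genes nearest to the other, and Fgf18 lay next to En1. All of them passed the filter through their KO signal alone, and the members were chosen on this contrast. Nothing is therefore read from their nearness.

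Genes beside the members in the genome had differences of both signs, all under 2-fold. The 2 nearest protein-coding genes with a probe set on each side, 16 in all by the gene order of RefSeq GRCm38.p6, ranged from -0.23 to 0.67, and 10 of the 16 passed the level filter. Next to Fgf8, Fbxw4 read 95.2 in KO and 71.8 in WT (0.34) and Oga 969.6 and 1089 (-0.17). Next to Fgf17, Dmtn read 45.1 and 22.4 (0.67), the largest of the 16, and Xpo7 read 802 and 733 (0.13). Next to Fgf18, the bright Npm1 read 4717 and 5328 (-0.18). Beside Fgf15, itself at 0.43, lie its relatives Fgf4 (-0.02) and Fgf3 (0.42), both under the filter. On the other side Ccnd1, the cyclin D1 gene, read 1626 and 1801 (-0.15). These neighbours were added after the members' values were seen.

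The arrays also differed in ways that run along with the labels. Xist, the RNA of the inactive X chromosome of females, read 2023 in KO and 5.19 in WT, and the Y-linked Eif2s3y, Kdm5d and Uty read 0.27, 1.22 and 2.21 in KO against 254, 187 and 90.9 in WT. Sex and genotype therefore cannot be told apart for any value above. All 12 macrophage markers, of which 4 passed the level filter, were lower in KO, with a summed intensity of 229 against 581. Over all genes 9041 of 18194 were lower. The part of macrophages in the ligand differences was not tested. All 10 brain markers passed the filter, 3 higher and 7 lower in KO, with a median difference of -0.11. The brightest were Fabp7 at 2485 and 2474 and Sox2 at 1515 and 1687, and those farthest apart, named after their values were seen, were Dcx (-0.38), Pax6 (-0.32) and Elavl3 (0.28). Elavl3 has no clear direction, since its other probe sets above the filter were lower in KO (-0.12 and -0.22). A further Dcx probe set above the filter was at -0.07.

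Markers of other tissues in which Fgf8 is known to be expressed mostly lay under the level filter. The forebrain list was planned for the anterior midline source, but its genes are not specific to that source. Only Lhx2 of its 5 measured genes passed, and it was lower in KO, at 59.4 against 104 (-0.67), while Six3 read 12.4 and 11.2. The other 4 measured were all slightly higher, for a list median of 0.05. The summed intensity of that list was 89.6 in KO and 128 in WT, and 30.2 against 24.2 without Lhx2. Of 7 pharyngeal arch markers only Eya1 passed, at 70.6 against 38.5 (0.67), and the sum was 85.1 against 59.8, or 14.5 against 21.3 without Eya1. In that list 3 were higher and 4 lower, with a median of -0.02, and Dlx5 read 0.69 and 0.90 and Tbx1 9.58 and 7.32. Of 6 limb bud markers only Prrx1 passed, at 79.6 against 65.4 (0.23), and the sum was 99.4 against 74.0, or 19.8 against 8.66 without Prrx1, with 4 higher, 2 lower and a median of 0.19. Of 7 tail bud markers only Wnt3a passed, which the dorsal neural tube also expresses, at 79.7 against 78.5, and the sum was 98.7 against 98.0, with 4 higher, 3 lower and a median of 0.02. None of the 8 measured Hox and hindbrain markers passed, with sums of 31.6 and 22.8, 7 higher, 1 lower and a median of 0.15. The part of these tissues in the ligand differences was not tested.

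**Figure D4:**
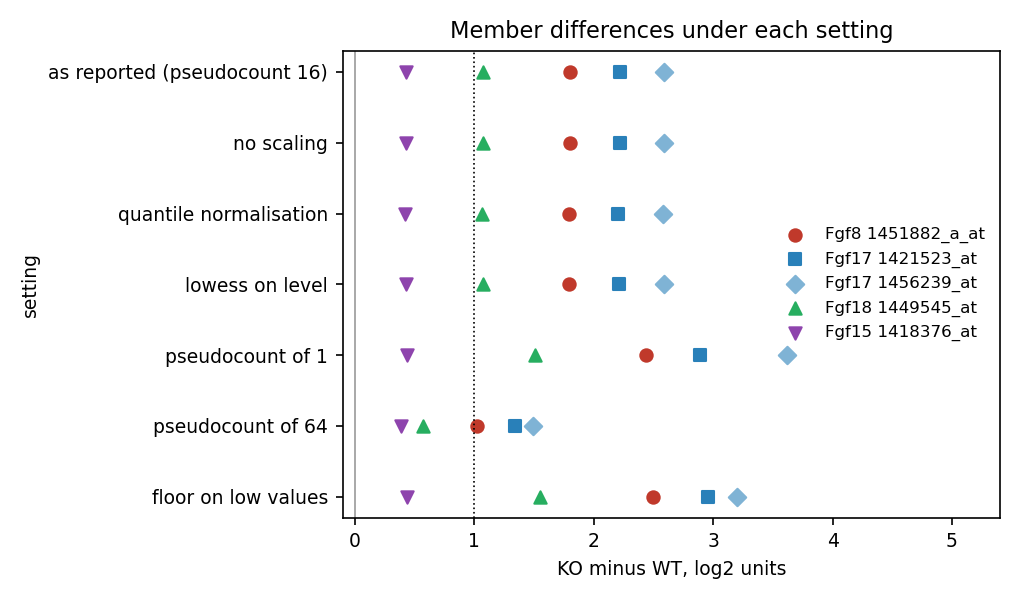
KO minus WT in log2 units for the 5 member probe sets (symbols) under each of 7 settings, with a dotted line at 2-fold. All values lie above 0. Scaling leaves them in place, a constant of 64 draws Fgf18 to 0.57, and a constant of 1 or a floor on low values spreads them to the right, up to 3.62 for Fgf17.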

How the data were processed

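Biotinylated cRNA of 250 ng total RNA per sample was hybridised, per the labels' protocols. The deposited table gives a linear intensity per probe set and array, made by the authors with Affymetrix Expression Console per the submitters' processing notes; its summary algorithm is not given in the sources used here. The mean without the lowest and highest 2% was 100.0 in both arrays, and the medians were 13.2. No detection calls or probe-level values were used, and the number of arrays, 1 per group, limits the precision.

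Groups came from the sample titles. Of the probe sets, 34958 had 1 gene symbol in the platform annotation and 932 had several, which named no gene. RefSeq GRCm38.p6 held 34754 of the former by gene ID, with the same symbols. The probe set with the highest mean log2 value stood for its gene. The threshold was 2-fold on the log2(intensity + 16) scale.

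The members and gene lists were chosen with earlier results of these data known. Genes were named by rule: all member probe sets, list genes at least 2-fold apart and passing the filter, up to 4 leading genes of each pathway list, the 3 genes most like each member, sex-linked transcripts and up to 2 markers per list. Others are said to be chosen later where they appear. Map2k2, Dusp5, Otx2, Sp5 and Dlx5 carry no such remark but were also named outside the rule, with their values already seen. The counting procedure was tested on simulated data. Alternatives covered scaling (none, quantile, lowess with a span of 0.3), the constant, a floor of 16, the filter, the threshold and the probe set that stands for a gene. The tools were matplotlib 3.10.9, statsmodels 0.14.6, pandas 2.3.3, numpy 2.4.6 and scipy 1.17.1 under Python 3.11.15.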

Additional observations from a re-analysis of the deposited data

How the results depend on the processing

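No paired analysis was possible because there is 1 array per group, which also leaves no replicate to drop. All 30 alternative values of the 5 member probe sets kept a higher signal in KO, and scaling moved none by more than 0.011. Changing the constant or setting a floor cannot turn the sign of a difference. The array medians were already 13.18 and 13.17, so scaling had little to move. As the members were also chosen on this contrast, that count is no test of their direction. Of 127 alternative values in all, 42 moved by more than the SD between probe sets of a gene (0.16) or, for counts, by over 1.5 times, and 0 called values turned direction.

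With a constant of 1, one of 64 and a floor of 16 in place of a constant, the difference was 2.44, 1.02 and 2.50 for Fgf8, 2.89, 1.34 and 2.96 for Fgf17 probe set 1421523_at, 3.62, 1.49 and 3.20 for 1456239_at, and 1.51, 0.57 and 1.55 for Fgf18, which thus lost its 2-fold call at 64. In that order, the median of the 4 members was 1.97, 0.80 and 2.03 and that of the feedback genes 0.98, 0.36 and 0.98. The regulators of Fgf8 had 0.86 at a constant of 1 and 0.30 at 64. Averaging a gene's probe sets gave a feedback median of 0.35, and it was 0.25 with the median probe set and 0.94 among genes passing the filter, and the regulator median was 0.36 with the median probe set.

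Genes at least 2-fold higher and lower in KO numbered 36 and 16 at a constant of 1, 9 and 4 at 64, 39 and 20 with the floor, 7 and 2 with a 75th-percentile filter, and 77 and 55 at 1.5-fold. The lower count was 15 with the median probe set and 13 with no filter. Probe sets numbered 57 and 31, 16 and 4, and 61 and 34 with a constant of 1, of 64 and the floor. Low signal is a further limit beside the single array per group, since the WT signals of Fgf8, Fgf17 and Fgf18 lie under the level filter.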
